A study of Homo sapiens with 18 samples.

Results

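A set of 50 genes of mitosis and the G2/M transition was examined in poly(A) mRNA libraries of A549, an established cell line from a human lung adenocarcinoma. The members were the genes whose symbol in the deposited count table equalled a name on a fixed list, and all 50 were found among its 44016 features. All 50 passed the filter on low counts, which kept 22382 features. The 18 libraries form 6 groups, each with 3 biological replicates per the labels. Wild-type (WT) cells were left untreated or exposed to hydrogen peroxide (H2O2) at 100 µM for 2 h, and a stable knockdown (KD) of S100A16 was sampled in both states, with the same dose and time. Stable KD lines of hnRNPM and of MagoHB were sampled without H2O2 only. S100A16 is an S100 protein that binds calcium, hnRNPM an RNA-binding splicing regulator, and MagoHB a protein at the heart of the exon junction complex. Every control is a wild-type culture, so the knockdown and the making of a stable line cannot be told apart. How the KDs were made and how many clones each line holds is not stated in the labels. The 3 KDs were compared with the same untreated WT libraries.

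Cells pass from G2 into mitosis when CDK1, bound to cyclins A and B, is switched on by CDC25 phosphatases and held on by Aurora and Polo kinases. Kinetochores and kinesin motors then attach and align the chromosomes, the spindle assembly checkpoint holds anaphase back until attachment is complete, and the anaphase-promoting complex (APC/C) with CDC20 destroys securin and cyclin B so that the chromatids part and the cell divides. Most of these genes are transcribed only late in the cell cycle. Their promoters typically carry a cell cycle homology region (CHR) with CCAAT boxes, bound by the DREAM complex and NF-Y and by B-MYB and FOXM1, and p53 lowers many of them through p21 and DREAM. Their mRNA is widely used as a score of proliferation, since few quiescent cells carry it.

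Promoter sequences show what the members share apart from their function. RefSeq (GRCh38.p14) gave the 300 bases around the start of 42 members, 250 before it and 50 from it, and the other members were AURKA, BIRC5, BUB3, TTK, UBE2C, TPX2, RACGAP1 and FOXM1. CCNB1, CCNB2 and CDC20 are printed because they carry both kinds of letters, and CENPE, ANLN and KIF11 because their mRNA differed between knockdowns. Each line is the 150 bases before the RefSeq start, 5′ to 3′ on the gene's strand, with capitals marking CCAAT and the CHR letters TTTGAA or TTTAAA on either strand.
CCNB1: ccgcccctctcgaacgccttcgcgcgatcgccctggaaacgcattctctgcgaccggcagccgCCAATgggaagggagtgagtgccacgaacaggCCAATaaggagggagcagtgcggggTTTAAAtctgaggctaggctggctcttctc
CCNB2: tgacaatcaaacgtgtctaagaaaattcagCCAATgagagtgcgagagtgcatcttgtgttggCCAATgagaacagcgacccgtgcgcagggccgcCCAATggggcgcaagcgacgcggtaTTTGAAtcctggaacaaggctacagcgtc
CDC20: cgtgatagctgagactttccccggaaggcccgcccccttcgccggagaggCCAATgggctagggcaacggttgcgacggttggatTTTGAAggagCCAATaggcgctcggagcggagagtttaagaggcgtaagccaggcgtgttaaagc
CENPE: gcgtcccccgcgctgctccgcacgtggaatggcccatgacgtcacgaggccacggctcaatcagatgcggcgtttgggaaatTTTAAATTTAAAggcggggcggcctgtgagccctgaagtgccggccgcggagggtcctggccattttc
ANLN: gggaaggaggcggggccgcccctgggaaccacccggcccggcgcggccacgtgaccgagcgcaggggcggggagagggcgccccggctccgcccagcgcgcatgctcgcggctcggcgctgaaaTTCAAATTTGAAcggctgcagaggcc
KIF11: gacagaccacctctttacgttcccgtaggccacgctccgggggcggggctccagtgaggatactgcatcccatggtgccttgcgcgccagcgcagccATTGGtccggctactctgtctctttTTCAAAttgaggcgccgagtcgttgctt
The stretches lie at chr5:69167000-69167149, plus strand (CCNB1), chr15:59104996-59105145, plus strand (CCNB2), chr1:43358831-43358980, plus strand (CDC20), chr4:103198344-103198493, minus strand (CENPE), chr7:36389712-36389861, plus strand (ANLN) and chr10:92592980-92593129, plus strand (KIF11). On the reverse strand the letters read ATTGG for CCAAT and TTCAAA for TTTGAA, whereas TTTAAA reads the same on both strands. In the 300-base windows, TTTGAA or TTTAAA was present in 36 of 42 members (85.7%), against 24.3% of all 27305 RefSeq promoters and 4 of 40 promoters of G1/S and replication genes. CCAAT was present in 76.2% of members, 35.7% of all promoters and 22 of these 40. Both kinds of letters stood in 66.7% of members, 9.49% of all promoters and 2 of the 40. In 27 of the 36 members with CHR letters, a match began within 100 bases before the start. The 6 members with no TTTGAA or TTTAAA in this window were AURKB, BUB1, CCNA2, CDC25B, CDC25C and NEK2. Only TTTGAA and TTTAAA were searched as CHR letters, so their absence does not show that a CHR is absent. Other starts of the same genes were not searched, so letters near such a start would be missed. These matches describe letters and not bound sites.

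Total counts per library ran from 36612997 (hnRNPM KD 2) to 51406431 (MagoHB KD 2). Epithelial keratins KRT8, KRT18 and KRT7 were between 218 and 6242 CPM in every library, whereas KRT19 was at most 1.37 CPM and EPCAM between 2.09 and 6.57 CPM. Of leukocyte markers, PTPRC was at most 0.516 CPM and CD14 at most 1.23 CPM, and endothelial markers (4 genes) summed to 0.172 to 1.02 CPM. CD3E, LYZ, CDH5 and KDR were listed at 0 in at least 1 library, and 6 fibroblast markers summed to 48.2 to 117 CPM. Each KD lowered its own target, with log2 fold changes against untreated WT of -3.81 for S100A16, -2.26 for HNRNPM and -1.52 for MAGOHB. The targets also moved in the other lines, since HNRNPM and MAGOHB were lower in the S100A16 KD (-0.57 and -0.62), MAGOHB in the hnRNPM KD (-1.17), and S100A16 and HNRNPM in the MagoHB KD (-0.97 and -0.31).

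3 libraries stood apart from their replicates over the 11443 genes whose mean reached 5 CPM, MagoHB KD 2 and hnRNPM KD 3 clearly and S100A16 KD 1 only slightly. MagoHB KD 2 differed from MagoHB KD 1 and 3 by a root mean square log2 difference of 0.394 and 0.320, while those replicates differed by 0.137. hnRNPM KD 3 differed from hnRNPM KD 1 and 2 by 0.289 and 0.265, against 0.140 between them. S100A16 KD 1, untreated, differed from its replicates by 0.148 and 0.156, against 0.114, which is near the 0.140 between hnRNPM KD 1 and 2. Among members, MagoHB KD 2 was the lowest MagoHB KD library for 50 of 50 and hnRNPM KD 3 the lowest hnRNPM KD library for 49 of 50. Results are therefore also given without these 3 libraries, an alternative chosen after seeing the data.

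Levels per length show which members dominated in untreated WT. In the deposited RPKM values, the proliferation marker MKI67 (130.5 ± 1.99, mean ± SD, n = 3) and the DNA topoisomerase TOP2A (122 ± 2.66) were highest. They were followed by TPX2 (85.4 ± 1.74), INCENP (80.9 ± 1.21) and PRC1 (72.7 ± 2.09), and neighbours in this order differed by more than their SDs. The lowest were the phosphatase CDC25C (4.69 ± 0.265), the checkpoint protein BUB3 (3.35 ± 0.0725) and separase ESPL1 (2.69 ± 0.0666). CENPA (6.40 ± 0.402) and KIF18A (6.40 ± 0.322) could not be ordered within their spread. All further levels are CPM, the count scaled to library size with TMM factors, compared for 1 gene across libraries.

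The summed mRNA of the members was lower in all 3 knockdowns. The CPM of the 50 members summed to 9391, 9429 and 9412 in untreated WT, or 9411 ± 19.3 (SD, n = 3). The sum was 5194, 5028 and 4982 in the S100A16 KD, a mean of 53.9% of untreated WT. It was 5545, 5695 and 4341 in the hnRNPM KD, a mean of 55.2%, and 7364, 3792 and 6715 in the MagoHB KD, a mean of 63.3%. The 9 untreated KD libraries all lay below the WT libraries, and the S100A16 KD libraries lay close together while the other KDs were spread by hnRNPM KD 3 (46.1% of WT) and MagoHB KD 2 (40.3%). Without these, the hnRNPM KD libraries were at 58.9% and 60.5% and the MagoHB KD libraries at 78.2% and 71.3%. In such bulk libraries, fewer cells in G2 and mitosis and less mitotic RNA per cell cannot be told apart.

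**Figure D1:**
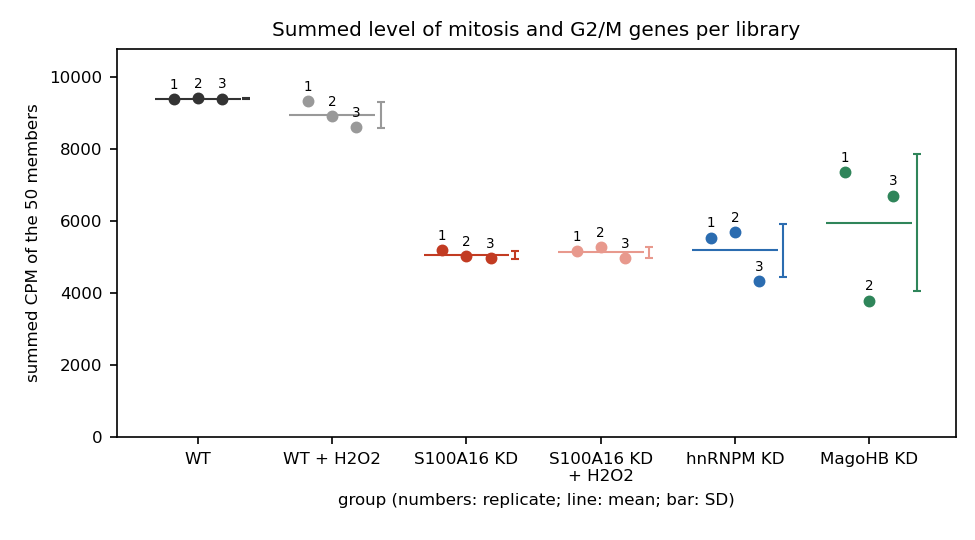
Summed CPM of the 50 members (vertical axis, from 0) in each of the 18 libraries by group; numbers mark replicates, lines the mean and bars the SD. The 9 untreated KD libraries sit between 3792 and 7364, below the untreated WT libraries near 9411, and the libraries given H2O2 lie near the untreated ones of the same line.

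Counted by gene, 48 of 50 members were lower in the S100A16 KD than in untreated WT at an adjusted p under 0.05, and none was higher, all 50 fold changes being below 0 in each KD. Among all genes tested 24.8% were lower and 27.6% higher in that comparison. In the hnRNPM KD 45 members were lower and none higher, against 23.8% and 25.4% of all genes. In the MagoHB KD 43 were lower and none higher, against 22.3% and 23.3%. Falls of at least 2-fold were called for 21, 13 and 3 members in the S100A16, hnRNPM and MagoHB KDs, where 3.9%, 5.54% and 3.1% of all genes fell that far. The median log2 fold change over the 50 members was -0.90, -0.81 and -0.67, beside 0.06, 0.02 and 0.04 over all genes tested. Every adjusted p printed for a gene comes from edgeR's quasi-likelihood F test with Benjamini-Hochberg adjustment over the 22382 genes, a value after ± beside a log2 value is its SE, and 10 comparisons were fitted. The SE rests on a spread estimated over all 18 libraries, so it does not measure the spread of the compared groups alone.

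The calls were shared by most members across the lines. The 38 members lower in all 3 KDs covered every role class. CDC25B, BUB1B, CDC20, UBE2C, ESPL1, ASPM and TOP2A passed the test in the S100A16 and hnRNPM KDs and not in the MagoHB KD, NEK2, CDCA8 and KIF18A in the S100A16 and MagoHB KDs and not in the hnRNPM KD, and BIRC5 and PRC1 in the MagoHB KD alone. Passing in 1 line and not in another is no test of a difference, which is given below for each pair of KDs. Without the 3 libraries that stood apart, 50, 48 and 45 members were lower in the S100A16, hnRNPM and MagoHB KDs, where 27.2%, 25.2% and 22.7% of all genes were lower, none was higher, and the medians were -0.95, -0.66 and -0.43. The number at least 2-fold lower then became 23, 6 and 2. The TMM factors lay between 0.908 and 0.932 in WT and between 0.970 and 1.10 in the KD libraries, and mitochondrial transcripts took 9.2% to 10.3% of counts in WT, 9.6% to 10.6% in the hnRNPM KD and 7.26% to 7.86% in the S100A16 and MagoHB KDs. Their part in the result was not tested. With scaling by total counts alone, which raised the median of all genes by 0.24, 0.11 and 0.21, the members lower numbered 42, 45 and 35, 1 (CDC25B) was higher in the MagoHB KD, and the medians were -0.67, -0.70 and -0.47.

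**Figure D2:**
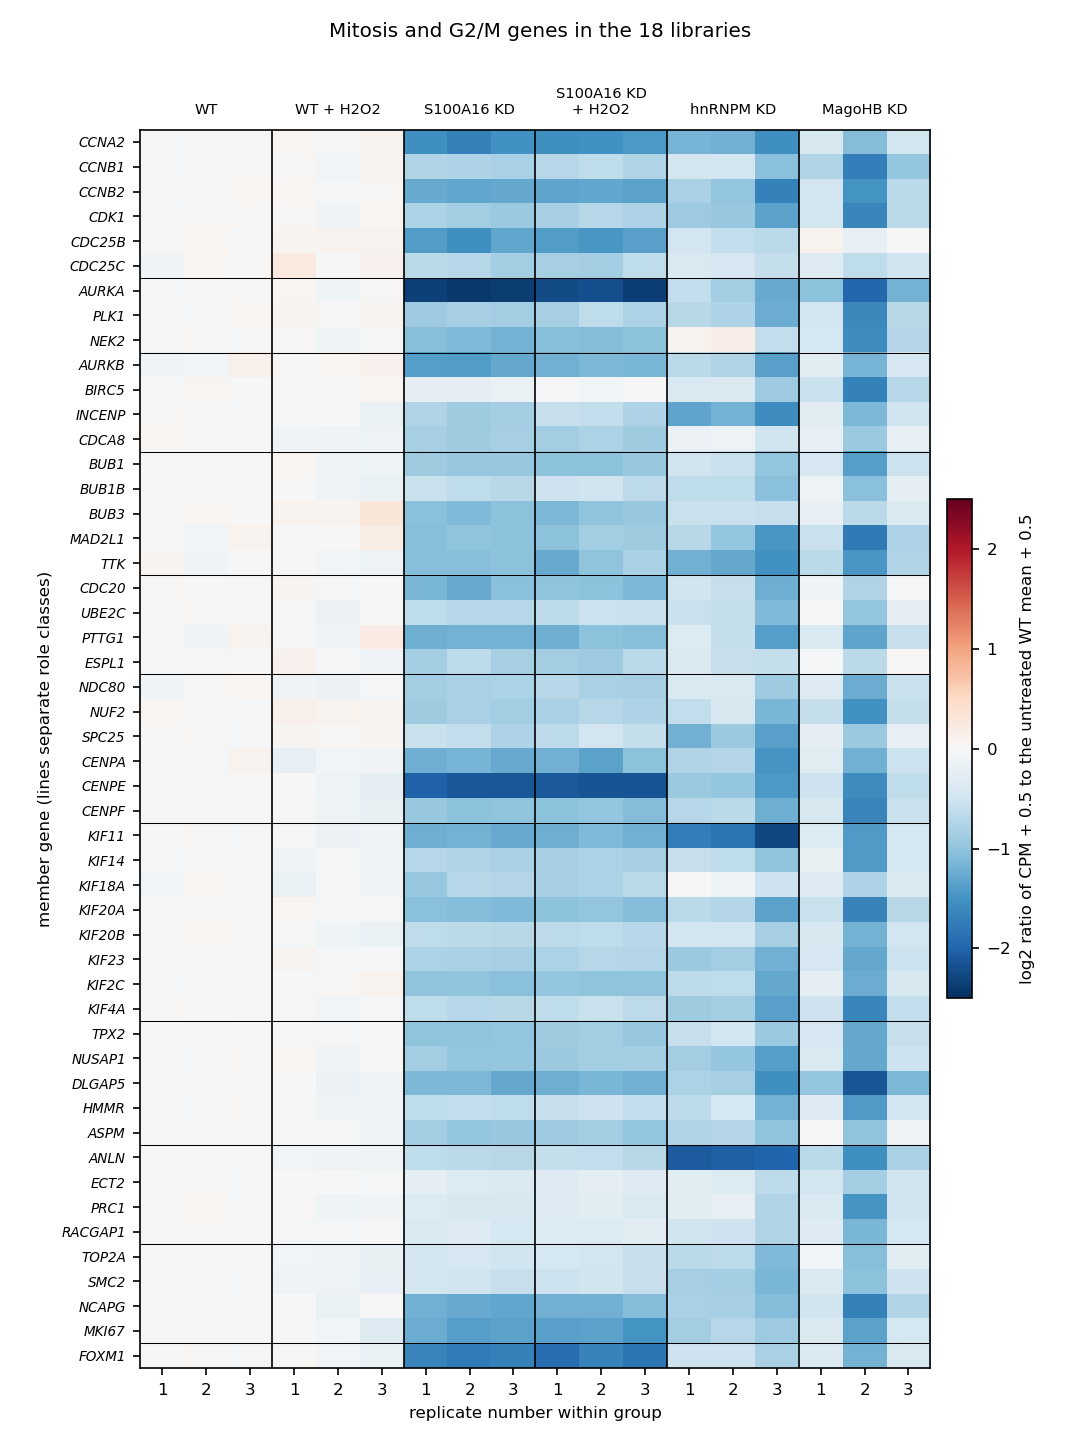
Heat map of the 50 members (rows, grouped by role) in the 18 libraries (columns): colour is the log2 ratio of CPM + 0.5 to the untreated WT mean + 0.5, blue for lower. S100A16 KD libraries look alike with or without H2O2, the columns of hnRNPM KD 3 and MagoHB KD 2 are bluer than their replicates, and AURKA, CENPE and FOXM1 are darkest in the S100A16 KD columns and ANLN and KIF11 in the hnRNPM KD columns.

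Cyclins, CDK1 and its CDC25 phosphatases were lower in nearly every KD comparison, with 6, 6 and 5 of 6 called in the S100A16, hnRNPM and MagoHB KDs. CCNB1, cyclin B1, measured 121, 124 and 124 CPM in untreated WT, 72.7, 72.1 and 70.1 in the S100A16 KD, 89.2, 88.3 and 59.7 in the KD of hnRNPM and 73.2, 37.5 and 62.9 in that of MagoHB. No KD library reached the WT range, and the lowest was MagoHB KD 2. Its log2 fold changes were -0.78 ± 0.19 (adjusted p = 0.0034), -0.64 ± 0.19 (adjusted p = 0.013) and -1.09 ± 0.19 (adjusted p = 0.00038) in that order, and the hnRNPM KD value was not called without hnRNPM KD 3 (-0.47, adjusted p = 0.062). CDK1, the kinase that drives entry into mitosis, measured 138, 144 and 144 CPM in untreated WT, 82.4, 77.9 and 74.5 in the S100A16 KD, 75.2, 73.6 and 55.9 in the KD of hnRNPM and 104, 45.8 and 88.5 in that of MagoHB. All KD libraries were below WT, at 55.1%, 48.0% and 55.9% of WT by group mean.

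CCNA2 and CDC25B separated the knockdowns more than CDK1 did. CCNA2, cyclin A2 of S phase and G2, was 65.9, 67.9 and 69.4 CPM in untreated WT, 23.1, 20.7 and 23.3 in the S100A16 KD, 29.9, 29.2 and 23.2 in the KD of hnRNPM and 51.2, 31.5 and 49.1 in that of MagoHB. The MagoHB KD lay above both other KDs (-0.97 ± 0.14, adjusted p = 1.8e-05 for the S100A16 against the MagoHB KD, and -0.68 ± 0.14, adjusted p = 0.00061 for the hnRNPM against the MagoHB KD). CDC25B, the phosphatase that starts CDK1 activation, was 93.3, 97.2 and 90.9 CPM in untreated WT, 35.4, 32.1 and 37.7 in the S100A16 KD, 67.4, 60.7 and 58.5 in the KD of hnRNPM and 99.1, 80.9 and 94.6 in that of MagoHB. The S100A16 and hnRNPM KD libraries lay below every WT library, and the MagoHB KD libraries on both sides of them. The 3 lines differed from each other (-0.83 ± 0.07, -1.38 ± 0.07 and -0.56 ± 0.07 for S100A16 against hnRNPM, S100A16 against MagoHB and hnRNPM against MagoHB, adjusted p = 3.9e-09, 1.1e-12 and 1.4e-06). Against WT, the MagoHB KD value was -0.04 ± 0.07 (adjusted p = 0.72) and turned to 0.17 (adjusted p = 0.037) under scaling by total counts alone. CCNB2, cyclin B2, had log2 fold changes of -1.29, -1.12 and -0.82 in the S100A16, hnRNPM and MagoHB KDs, and CDC25C, the phosphatase acting at mitotic entry, -0.77, -0.48 and -0.50, all called.

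Of the mitotic kinases, AURKA had the lowest fold change of any member. AURKA, the Aurora kinase of centrosomes and spindle poles, measured 71.4, 72.6 and 74.1 CPM in untreated WT and 14, 13.3 and 13.6 in the S100A16 KD. It measured 47.0, 39.4 and 29.9 CPM in the KD of hnRNPM and 35.3, 18.3 and 31.7 in that of MagoHB. No KD library overlapped WT, and the S100A16 KD libraries lay below all libraries of the other KDs. The log2 fold change against WT was -2.42 ± 0.20 (adjusted p = 2.0e-07), -0.91 ± 0.19 (adjusted p = 0.0012) and -1.36 ± 0.19 (adjusted p = 5.3e-05) in the S100A16, hnRNPM and MagoHB KDs. The S100A16 KD was lower than the hnRNPM KD (log2 difference -1.51 ± 0.20, adjusted p = 2.0e-05) and than the MagoHB KD (log2 difference -1.06 ± 0.20, adjusted p = 0.00056), and both differences passed under every alternative run.

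PLK1 and NEK2 behaved otherwise. PLK1, the Polo kinase needed from mitotic entry to cytokinesis, was 81.3, 77.8 and 83.9 CPM in untreated WT, 42.9, 45.1 and 44.1 in the S100A16 KD, 49.8, 47.3 and 34.1 in the KD of hnRNPM and 58.1, 26.3 and 49.6 in that of MagoHB. Its log2 fold changes were -0.88, -0.89 and -0.86, each with an adjusted p of at most 0.0048, and 12.9% of its exon bases are shared with other genes. Leaving out the libraries that stood apart gave -0.88, -0.74 and -0.59, and the MagoHB KD was then above the S100A16 KD (-0.29 for S100A16 against MagoHB, adjusted p = 7.0e-05) and the hnRNPM KD (-0.15 for hnRNPM against MagoHB, adjusted p = 0.038). NEK2, which splits the centrosomes, was 63.1, 65.0 and 62.3 CPM in untreated WT, 30.2, 29.4 and 27.5 in the S100A16 KD, 67.7, 70.8 and 41.3 in the KD of hnRNPM and 46.8, 21.4 and 38.2 in that of MagoHB. hnRNPM KD 1 and 2 were above every WT library and hnRNPM KD 3 below, for a log2 fold change of -0.08 ± 0.23 (adjusted p = 0.80). NEK2 was lower in the S100A16 than in the hnRNPM KD (-1.04 ± 0.23, adjusted p = 0.0021), a difference called under every alternative run, and the hnRNPM KD was above the MagoHB KD (0.76 ± 0.23, adjusted p = 0.016), a call lost without hnRNPM KD 1 or 2 and in the fit to those 2 groups alone.

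The chromosomal passenger complex, which corrects faulty attachments and steers cytokinesis, was lower in part, with 3, 2 and 4 of its 4 genes called in the S100A16, hnRNPM and MagoHB KDs. AURKB, its kinase, measured 126, 127 and 147 CPM in untreated WT, 51.3, 50.6 and 54.7 in the S100A16 KD, 82.9, 79.1 and 52.1 in the KD of hnRNPM and 111, 59.4 and 99.9 in that of MagoHB. All KD libraries were below WT, and the S100A16 KD was lower than the MagoHB KD (-0.79 ± 0.20, adjusted p = 0.0049). The MagoHB KD call of AURKB against WT was lost without MagoHB KD 2 alone and kept without the 3 libraries that stood apart. INCENP, the scaffold of the complex, was 405, 393 and 389 CPM in untreated WT, 235, 214 and 219 in the S100A16 KD, 158, 175 and 135 in the KD of hnRNPM and 327, 181 and 282 in that of MagoHB. It was lowest in the hnRNPM KD, at a log2 fold change of -1.34 ± 0.16 against WT (adjusted p = 5.0e-06) and -0.76 ± 0.16 against the MagoHB KD (adjusted p = 0.0010). The S100A16 KD lay 0.52 ± 0.16 above the hnRNPM KD (adjusted p = 0.013) and was not called without hnRNPM KD 3.

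BIRC5 and CDCA8 showed other orders. BIRC5, survivin, measured 83.9, 89.2 and 85.0 CPM in untreated WT, 73.3, 73.5 and 76.4 in the S100A16 KD, 66.1, 66.5 and 45.8 in the KD of hnRNPM and 58.2, 26.4 and 52.2 in that of MagoHB. Every KD library was below WT, yet in the fit to all 18 libraries only the MagoHB KD was called (-0.92 ± 0.22, adjusted p = 0.0035). The S100A16 and hnRNPM KD values were -0.21 ± 0.21 (adjusted p = 0.44) and -0.53 ± 0.21 (adjusted p = 0.055). Without the 3 libraries that stood apart, BIRC5 was called lower in all 3 KDs. The S100A16 KD was above the MagoHB KD (log2 difference 0.71 ± 0.22, adjusted p = 0.016), a call lost in the fit to those 2 groups alone and without S100A16 KD 3. CDCA8, borealin, was lower in the S100A16 than in the hnRNPM KD (-0.62 ± 0.14, adjusted p = 0.0014), with log2 fold changes against WT of -0.87 and -0.25, the second not called, and of -0.42 in the MagoHB KD.

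Spindle assembly checkpoint genes were lower throughout, with 5, 5 and 4 of 5 called. BUB3, which brings the BUB1 and BUBR1 proteins to kinetochores, measured 29.9, 31.3 and 30.0 CPM in untreated WT, 14.6, 14 and 14.7 in the S100A16 KD, 20.5, 20.5 and 20.1 in the KD of hnRNPM and 26.3, 18.8 and 23.4 in that of MagoHB. The S100A16 KD was lowest, below the hnRNPM KD (log2 difference -0.50 ± 0.09, adjusted p = 0.00012) and the MagoHB KD (log2 difference -0.66 ± 0.09, adjusted p = 4.1e-06), under every alternative run. TTK, the MPS1 kinase that starts the checkpoint signal, had log2 fold changes of -1.08 ± 0.15, -1.37 ± 0.16 and -0.95 ± 0.15 in the S100A16, hnRNPM and MagoHB KDs, and MAD2L1, the MAD2 protein, -1.05 ± 0.25, -1.03 ± 0.25 and -0.97 ± 0.25, all called. BUB1, the kinetochore kinase, fell by 0.94, 0.67 and 0.72 on the log2 scale. BUB1B, which encodes BUBR1 and shares 10.2% of its exon bases with a readthrough gene, had values of -0.62, -0.76 and -0.41, the last not called (adjusted p = 0.076).

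APC/C cofactors and the sister separation genes were lower in the S100A16 and hnRNPM KDs, 4 of 4 in each, and 1 of 4 in the MagoHB KD. CDC20, the activator of the APC/C, measured 28.8, 28.5 and 27.1 CPM in untreated WT, 12.5, 11.5 and 13.4 in the S100A16 KD, 19.8, 18.6 and 11.9 in the KD of hnRNPM and 26.4, 16.4 and 27.0 in that of MagoHB. The S100A16 and hnRNPM KD libraries were all below WT, while MagoHB KD 1 and 3 lay just under the lowest WT library. The MagoHB KD value was not called (-0.28 ± 0.17, adjusted p = 0.22), and the S100A16 KD was lower than the MagoHB KD (log2 difference -0.90 ± 0.18, adjusted p = 0.00064). CDC20 has a pseudogene, CDC20P1, with a mean of 86.8 counts beside 889 for CDC20, so some reads may be split between them. PTTG1, securin, had log2 fold changes of -1.22, -0.72 and -0.72, all called, although the hnRNPM KD call was lost in 4 of 25 alternatives, without hnRNPM KD 3 among them. The MagoHB KD call of PTTG1 was lost without MagoHB KD 2 alone and kept without the 3 libraries that stood apart. ESPL1, separase, had -0.80, -0.52 and -0.21, and UBE2C, the ubiquitin-conjugating enzyme of the APC/C, -0.71, -0.75 and -0.36, with the MagoHB KD not called for either (adjusted p = 0.21 and 0.13).

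All 6 kinetochore and centromere genes were lower in each KD. CENPE, the kinetochore kinesin that carries chromosomes to the spindle equator, measured 195, 194 and 201 CPM in untreated WT and 47.7, 44.6 and 44.8 in the S100A16 KD. It measured 103, 100.1 and 72.5 CPM in the KD of hnRNPM and 137, 65.8 and 126 in that of MagoHB. The S100A16 KD libraries were below every other group and close together. The log2 fold change was -2.10 ± 0.21 (adjusted p = 2.0e-06) in the S100A16 KD, -1.10 ± 0.21 (adjusted p = 0.00057) in the KD of hnRNPM and -0.85 ± 0.20 (adjusted p = 0.0042) in that of MagoHB. Directly compared, the S100A16 KD was -1.01 ± 0.21 against the hnRNPM KD (adjusted p = 0.0012) and -1.26 ± 0.21 against the MagoHB KD (adjusted p = 0.00022), called under every alternative run.

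Among the other kinetochore genes the NDC80 complex was lower in each line. SPC25, a subunit of the microtubule-binding NDC80 complex, was lowest in the hnRNPM KD, at 16.7, 20.3 and 15.1 CPM against 39.3, 39.9 and 38.7 in untreated WT, 26.5, 25.5 and 22.9 in the S100A16 KD and 33.6, 20.4 and 34.1 in the MagoHB KD. Its hnRNPM KD value of -1.18 ± 0.15 differed from the MagoHB KD (log2 difference -0.76 ± 0.15, adjusted p = 0.00050) and from the S100A16 KD by 0.53 (adjusted p = 0.0077), the second not called without hnRNPM KD 3. NDC80 (-0.83, -0.54 and -0.66) and NUF2 (-0.87, -0.70 and -0.85) of the same complex followed, and both hnRNPM KD calls were lost without hnRNPM KD 3. CENPA, the histone variant that marks centromeres, had -1.29, -1.0 and -0.67, and the large kinetochore protein CENPF -1.0, -0.85 and -0.77.

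**Figure D3:**
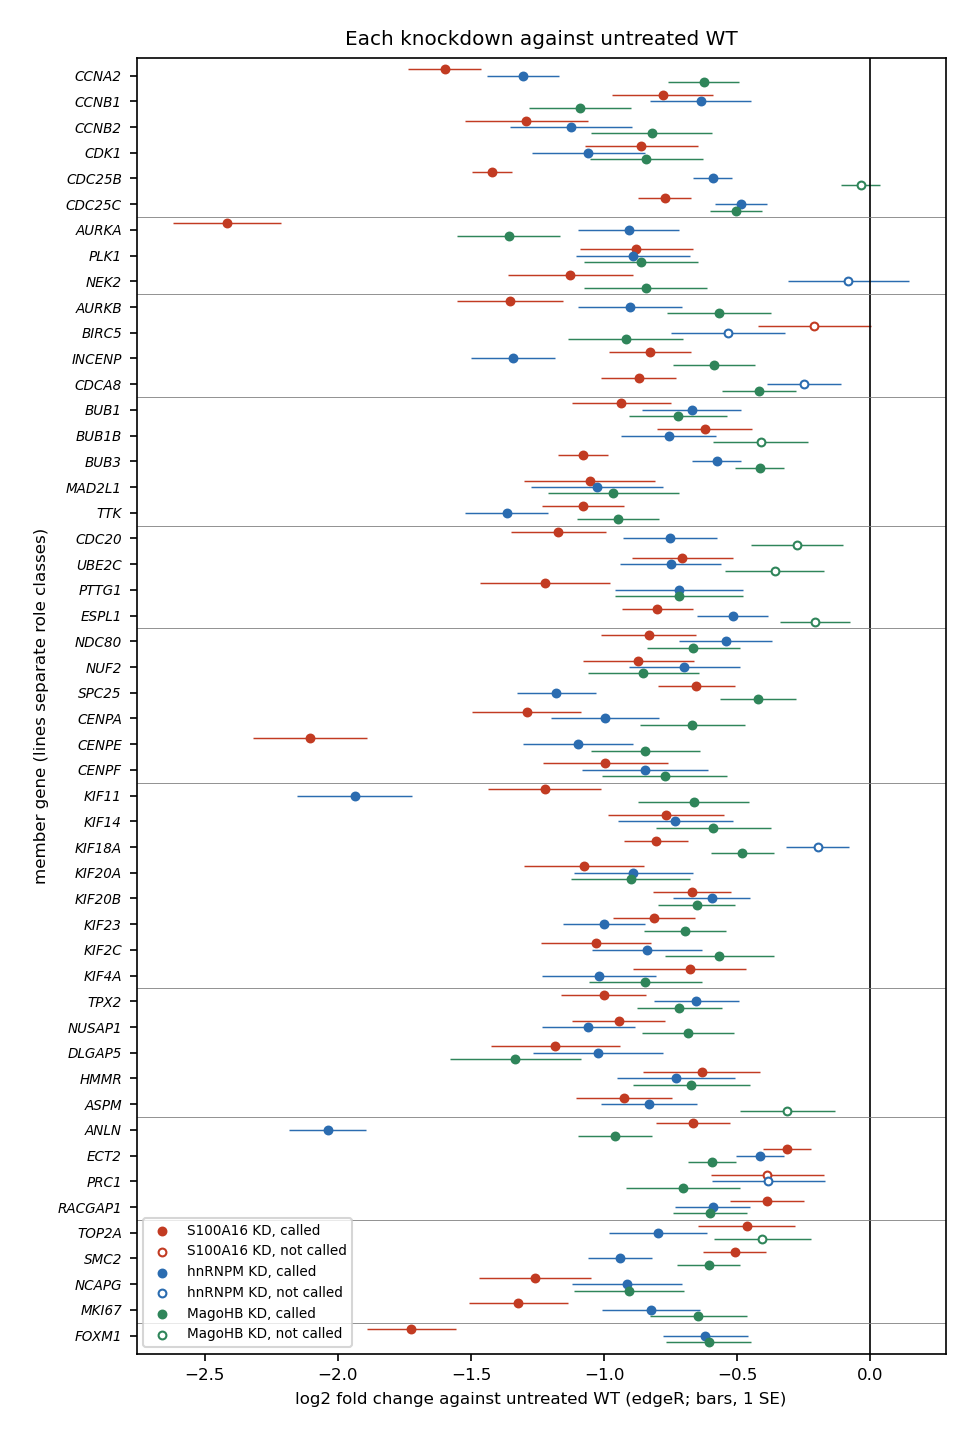
Log2 fold change against untreated WT (horizontal axis) of each member in the S100A16, hnRNPM and MagoHB KDs, with bars of 1 SE; filled points passed an adjusted p of 0.05. Every point lies below 0, AURKA and CENPE reach furthest in the S100A16 KD, and ANLN and KIF11 in the hnRNPM KD.

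Kinesin motors were lower in the S100A16 KD (8 of 8), the hnRNPM KD (7) and the MagoHB KD (8). KIF11, the Eg5 motor that pushes spindle poles apart, measured 201, 204 and 196 CPM in untreated WT, 86.3, 88.3 and 82.9 in the S100A16 KD, 60.0, 56.0 and 41.2 in the KD of hnRNPM and 158, 74.5 and 148 in that of MagoHB. The hnRNPM KD libraries were below all other libraries and MagoHB KD 2 below the S100A16 KD. Against WT the log2 fold change was -1.22 ± 0.21 (adjusted p = 0.00026), -1.94 ± 0.22 (adjusted p = 5.7e-06) and -0.66 ± 0.21 (adjusted p = 0.019) in the S100A16, hnRNPM and MagoHB KDs. The hnRNPM KD was lower than the MagoHB KD (log2 difference -1.27 ± 0.21, adjusted p = 0.00024) under every alternative run, while its difference of 0.71 from the S100A16 KD (adjusted p = 0.013) was not called without hnRNPM KD 3.

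KIF18A, which shortens microtubule plus ends at kinetochores, was 31.0, 33.9 and 33.1 CPM in untreated WT, 16.8, 19.7 and 19.6 in the S100A16 KD, 32.7, 30.1 and 22.7 in the KD of hnRNPM and 26.1, 19 and 25.2 in that of MagoHB. The hnRNPM KD overlapped WT (-0.20 ± 0.12, adjusted p = 0.18) and lay above the S100A16 KD (-0.61 ± 0.12 for S100A16 against hnRNPM, adjusted p = 0.00032). The central spindle motors KIF20A (-1.08, -0.89 and -0.90 in the S100A16, hnRNPM and MagoHB KDs) and KIF23 (-0.81, -1.0 and -0.70) were called in every KD. So were the chromokinesin KIF4A (-0.68, -1.02 and -0.85), the microtubule depolymerase KIF2C (-1.03, -0.84 and -0.57), KIF14 (-0.77, -0.73 and -0.59) and KIF20B (-0.67, -0.60 and -0.65). For KIF14 and KIF2C the MagoHB KD call was lost in 11 and 7 of the 25 alternatives, scaling by total counts among them. The hnRNPM KD call of KIF14 was lost without hnRNPM KD 3 alone.

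Spindle microtubule proteins were lower in 5, 5 and 4 of 5 genes. TPX2, which binds and activates AURKA on the spindle, measured 334, 335 and 339.7 CPM in untreated WT, 168, 167 and 169 in the S100A16 KD, 226, 241 and 176 in the KD of hnRNPM and 251, 138 and 226 in that of MagoHB. Every KD library was below WT, and the log2 fold changes were -1.0 ± 0.16 (adjusted p = 0.00010), -0.65 ± 0.16 (adjusted p = 0.0034) and -0.72 ± 0.16 (adjusted p = 0.0020). DLGAP5, the spindle protein HURP, had its lowest value in the MagoHB KD, with -1.18, -1.02 and -1.33 in the S100A16, hnRNPM and MagoHB KDs, and without the 3 libraries that stood apart the order of the S100A16 and MagoHB KDs turned (0.15 against -0.19). NUSAP1 had -0.95, -1.06 and -0.68, and HMMR -0.63, -0.73 and -0.67, of which the HMMR calls were each lost in at least 1 alternative. ASPM, a spindle pole protein, was 241, 238 and 238 CPM in untreated WT, 131, 122 and 124 in the S100A16 KD, 141, 144 and 119 in the KD of hnRNPM and 240.3, 119 and 219 in that of MagoHB. MagoHB KD 1 was inside the WT range, and the MagoHB KD value was not called (-0.31 ± 0.18, adjusted p = 0.18).

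Cytokinesis genes held the deepest hnRNPM KD value. ANLN, anillin, the scaffold of the contractile ring, measured 448, 458 and 449 CPM in untreated WT and 107, 109.7 and 113 in the hnRNPM KD. It measured 290.4, 284 and 279 CPM in the S100A16 KD and 283, 156 and 258 in the MagoHB KD. The 3 hnRNPM KD libraries were close together, below all libraries of the other groups, and hnRNPM KD 3 did not stand apart for this gene. The log2 fold changes were -0.67 ± 0.14 (adjusted p = 0.00081), -2.04 ± 0.14 (adjusted p = 1.1e-08) and -0.96 ± 0.14 (adjusted p = 4.3e-05). The S100A16 KD was above the hnRNPM KD (log2 difference 1.37 ± 0.14, adjusted p = 7.2e-07) and the hnRNPM KD below the MagoHB KD (log2 difference -1.08 ± 0.14, adjusted p = 1.1e-05), both under every alternative run.

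The other cytokinesis genes had values nearer 0. ECT2, which activates RHOA at the division plane, had log2 fold changes of -0.31 ± 0.09, -0.42 ± 0.09 and -0.60 ± 0.09 in the S100A16, hnRNPM and MagoHB KDs. RACGAP1, which forms centralspindlin with KIF23, had -0.39 ± 0.14, -0.59 ± 0.14 and -0.60 ± 0.14, the S100A16 KD call lost in 5 of 25 alternatives. PRC1, which bundles the midzone microtubules, passed only in the MagoHB KD (-0.70 ± 0.21, adjusted p = 0.016), beside -0.39 ± 0.21 (adjusted p = 0.15) and -0.38 ± 0.21 (adjusted p = 0.16). Once the libraries that stood apart were left out, PRC1 was at -0.43, -0.24 and -0.43, called in all 3 KDs.

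Chromosome structure genes and MKI67 were lower in 4, 4 and 3 of 4. MKI67, the Ki-67 marker of cycling cells, measured 1826, 1821 and 1834 CPM in untreated WT, 772, 699.9 and 719 in the S100A16 KD, 1005, 1116 and 976 in the KD of hnRNPM and 1428, 719 and 1353 in that of MagoHB. The KD libraries were all below WT, and the S100A16 KD libraries were below all libraries of the other KDs but MagoHB KD 2. Log2 fold changes were -1.32 ± 0.19 (adjusted p = 3.6e-05), -0.82 ± 0.18 (adjusted p = 0.0019) and -0.65 ± 0.18 (adjusted p = 0.010). TOP2A, which untangles sister chromatids, was 866, 850.4 and 869 CPM in untreated WT, 619, 647 and 608 in the S100A16 KD, 538, 550.2 and 400.4 in the KD of hnRNPM and 817, 414 and 720.5 in that of MagoHB. It was called in the hnRNPM KD (-0.80 ± 0.18, adjusted p = 0.0025) and narrowly in the S100A16 KD (-0.46 ± 0.18, adjusted p = 0.047), where 15 of 25 alternatives lost the call. The S100A16 KD call was kept without the 3 libraries that stood apart and in the fit to that KD and WT alone.

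The condensin genes SMC2 and NCAPG differed in order. SMC2, a core subunit, measured 242, 240.3 and 227 CPM in untreated WT, 171, 168 and 158 in the S100A16 KD, 133, 129.9 and 107 in the KD of hnRNPM and 185, 116 and 165 in that of MagoHB. It was lowest in the hnRNPM KD by group mean (-0.94 ± 0.12, adjusted p = 4.9e-06), below the S100A16 KD (0.43 ± 0.12 for S100A16 against hnRNPM, adjusted p = 0.0063). NCAPG had log2 fold changes of -1.26, -0.91 and -0.91 in the S100A16, hnRNPM and MagoHB KDs, but 33.1% of its exon bases overlap another gene on the opposite strand.

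FOXM1, the transcription factor that drives many G2/M promoters, measured 52.3, 53.9 and 52.0 CPM in untreated WT and 16.6, 15.3 and 16.1 in the S100A16 KD. It measured 36.8, 36.6 and 29.7 CPM in the KD of hnRNPM and 41.0, 22.9 and 40.2 in that of MagoHB. No KD library overlapped WT, and the S100A16 KD libraries lay below those of both other KDs. The log2 fold changes were -1.72 ± 0.17 (adjusted p = 5.2e-07), -0.62 ± 0.16 (adjusted p = 0.0049) and -0.61 ± 0.16 (adjusted p = 0.0061), and the S100A16 KD differed from the hnRNPM KD by -1.11 ± 0.17 and from the MagoHB KD by -1.12 ± 0.17 (adjusted p = 4.9e-05 and 4.9e-05). Both held under every alternative run, while 15.9% of FOXM1 exon bases overlap another gene and counting by strand is not stated.

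**Figure D4:**
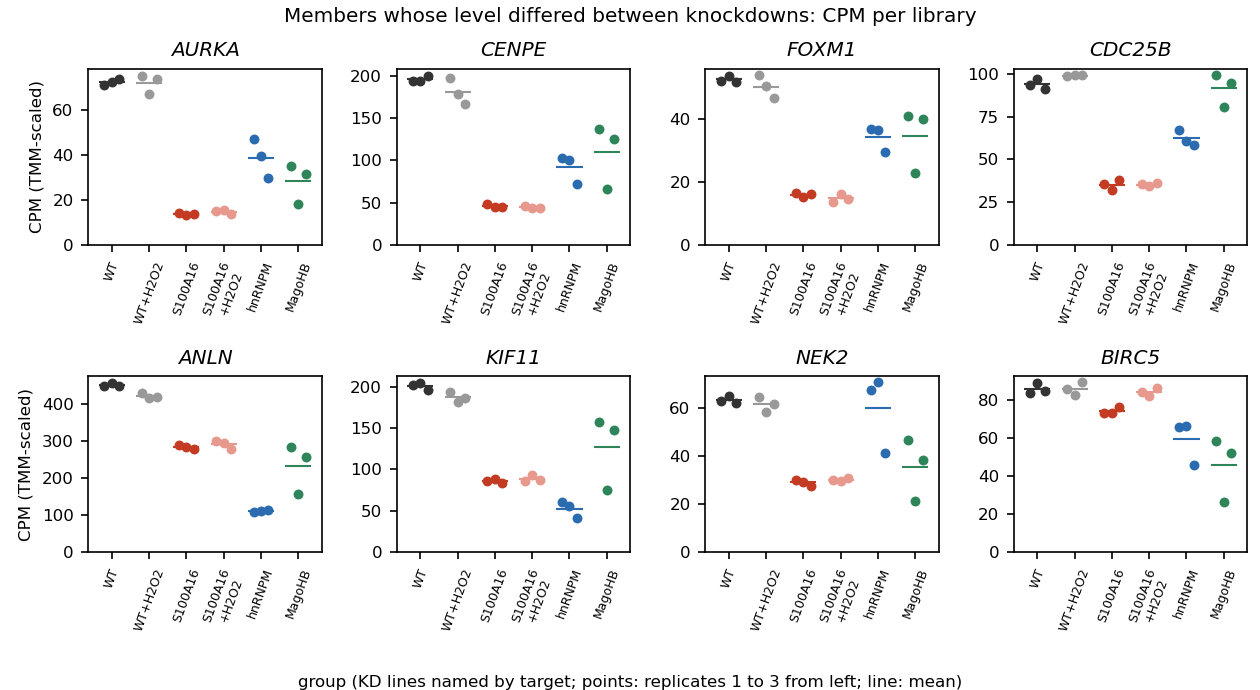
CPM (vertical axes, from 0) of 8 members in each library, with points for replicates 1 to 3 and a line for the group mean. AURKA, CENPE, FOXM1 and CDC25B are lowest in the S100A16 KD, ANLN and KIF11 in the hnRNPM KD, NEK2 stays near WT in hnRNPM KD 1 and 2, and BIRC5 is lowest in the MagoHB KD.

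Set against each other, the KDs differed in a part of the members, and in both directions. Between the S100A16 and hnRNPM KDs 10 members were lower in the S100A16 KD and 5 higher, where 24.2% and 24.6% of all genes were lower and higher. The 10 were AURKA, FOXM1, NEK2, CENPE, CDC25B, CDCA8, KIF18A, BUB3, MKI67 and CDC25C, and the 5 were ANLN, KIF11, SPC25, INCENP and SMC2. Under scaling by total counts alone, which raised the median of all genes by 0.12 in this pair, 8 were lower and 9 higher. Between the S100A16 and MagoHB KDs 16 were lower and 2 higher (BIRC5 and ECT2), against 21.7% and 23.2% of all genes, and CDC25B, CENPE, FOXM1, AURKA and CCNA2 had the lowest values. Between the hnRNPM and MagoHB KDs 10 were lower (KIF11, ANLN, SPC25, INCENP, CCNA2, CDC25B, ASPM, CDC20, TTK and SMC2) and NEK2 was higher, against 22.2% and 22.3% of all genes, and total counts alone gave 17 lower and 1 higher.

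These counts moved with the libraries that stood apart. Without the 3, members lower in the S100A16 than in the hnRNPM KD numbered 32, with 8 higher, where 26.3% of all genes tested were lower. Against the MagoHB KD 44 were lower and 1 (BIRC5) higher, where 24.1% of all genes were lower. Between the hnRNPM and MagoHB KDs 30 were then lower and 8 higher, where 23.4% of all genes were lower. Of the 22638 genes tested in this fit, 5717, 5550 and 5358 were higher in these pairs, in that order. The share of members higher was below that share in each pair. The share of members lower thus exceeded the share over all genes in each pair in this fit, but with all libraries it did so only for S100A16 against MagoHB (16 of 50, beside 21.7%). Leaving out MagoHB KD 2 alone gave 18 lower and 11 higher for S100A16 against hnRNPM, 38 lower and 1 higher for S100A16 against MagoHB and 31 lower for hnRNPM against MagoHB. Leaving out MagoHB KD 1 or 3 gave 10 lower for S100A16 against MagoHB and 6 lower for hnRNPM against MagoHB, and leaving out hnRNPM KD 3 gave 6 lower and 5 higher for hnRNPM against MagoHB and 2 higher for S100A16 against hnRNPM. Without MagoHB KD 1 there were 5 higher for S100A16 against MagoHB and 6 for hnRNPM against MagoHB. Without S100A16 KD 1 or 3 there was 1 higher for S100A16 against MagoHB, and without hnRNPM KD 1 or 2 there was 0 for hnRNPM against MagoHB. The shares over all genes in these fits with 1 library left out are not given here. Moves of these counts can therefore not be read as particular to the members. The median log2 difference moved from -0.15 to -0.34 for S100A16 against hnRNPM, from -0.24 to -0.51 for S100A16 against MagoHB and from -0.15 to -0.30 for hnRNPM against MagoHB. MKI67 went from -0.68 to -1.0 in the S100A16 against the MagoHB KD, while ANLN in the S100A16 against the hnRNPM KD was 1.36 without the 3 and AURKA -1.71.

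No change of the members with H2O2 was detected in the fit to all groups, at this number of libraries. The summed CPM under H2O2 was 9333, 8926 and 8614 in WT, a mean of 95.2% of untreated WT, and 5177, 5283 and 4973 in the S100A16 KD, or 54.7% of untreated WT. No member passed an adjusted p of 0.05 in WT or in the S100A16 KD, or for the interaction of the KD with H2O2, and by edgeR none had an unadjusted p under 0.05 in any of the 3. Of all genes 0.223%, 0.0134% and 0.0938% were called in either direction, and 6.6%, 6.77% and 5.07% had an unadjusted p under 0.05. DESeq2 also called 0 members in each. Log2 fold changes of H2O2 ran from -0.15 (SMC2) to 0.17 (BUB3) in WT and from -0.10 (FOXM1) to 0.19 (AURKB) in the S100A16 KD. In fits to the 2 groups alone SMC2 was lower in WT (-0.15, adjusted p = 0.015), and AURKB, BIRC5 and INCENP were higher in the KD (0.17, 0.17 and 0.16). The shares over all genes in those fits are not given here, so these calls cannot be read as particular to the members. Without the 3 libraries that stood apart, SMC2 was called lower in WT and BIRC5 higher in the S100A16 KD. More genes were called in that fit too. Of 22638 tested, 204 were lower and 213 higher in WT, and 66 lower and 298 higher in the S100A16 KD. With 1 member called in each, the members are not set apart from other genes. The fit to all groups takes its spread also from MagoHB KD 2 and hnRNPM KD 3, which are in none of these comparisons. Its lack of calls therefore cannot show that the members respond less to H2O2 than other genes.

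Under H2O2 the S100A16 KD was again below WT. With H2O2 in both arms, 45 members were lower and none higher, beside 24.7% of all genes lower and 27.9% higher, and 19 were at least 2-fold lower, beside 4.91%. AURKA measured 75.3, 67.4 and 74.1 CPM in WT and 15.0, 15.4 and 13.7 in the KD, CENPE 198, 179 and 167 and 45.4, 43.6 and 43.5, and FOXM1 54.1, 50.5 and 46.8 and 13.7, 16.2 and 14.6. These are log2 fold changes of -2.29 ± 0.20, -2.04 ± 0.21 and -1.77 ± 0.17, with no overlap between the arms. BIRC5 was 86.1, 82.8 and 89.4 CPM in WT under H2O2 and 84.5, 82.2 and 86.3 in the KD, which overlapped (-0.03 ± 0.21, adjusted p = 0.92). HMMR, PRC1, RACGAP1 and TOP2A were the other members not called.

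Genes of the same process outside the 50 were mostly lower too. Of 64 other G2/M genes, 57, 49 and 42 were lower and 1, 1 and 2 higher in the S100A16, hnRNPM and MagoHB KDs, with medians of -0.82, -0.62 and -0.52. The shares over all genes tested were 24.8%, 23.8% and 22.3% lower and 27.6%, 25.4% and 23.3% higher. Leaving out the libraries that stood apart, 61, 55 and 47 of the 64 were lower and 1, 4 and 7 higher, with medians of -0.86, -0.50 and -0.30. In that fit 27.2%, 25.2% and 22.7% of all genes were lower, and 6391, 5813 and 4975 of 22638 were higher. GAS2L3 (-1.85 ± 0.18), KIF18B (-1.64 ± 0.14) and KNSTRN (-1.35 ± 0.10) had the smallest adjusted p among those lower in the S100A16 KD, SAPCD2 (-2.34 ± 0.23) and SGO2 (-1.64 ± 0.16) in the hnRNPM KD, and MIS18A (-1.95 ± 0.13), DEPDC1 (-2.17 ± 0.21) and KNSTRN (-0.77 ± 0.09) in the MagoHB KD. WEE1, the kinase that restrains CDK1, was the 1 gene higher in the S100A16 KD (0.41 ± 0.10, adjusted p = 0.0011) and in the hnRNPM KD (0.97 ± 0.10, adjusted p = 3.0e-08), with 0.03 ± 0.10 in the MagoHB KD (adjusted p = 0.85). CDC25A (0.37 ± 0.13) and PKMYT1 (0.37 ± 0.13), a phosphatase and a kinase that act on CDKs in opposite senses, were higher in the MagoHB KD, their libraries overlapping WT.

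The core APC/C subunits and the regulators of G2/M transcription had medians nearer 0. Of 15 APC/C subunits and activators, 11, 10 and 8 were lower and 1, 2 and 0 higher, with medians of -0.21, -0.23 and -0.17. For both lists, the shares over all genes tested were 24.8%, 23.8% and 22.3% lower and 27.6%, 25.4% and 23.3% higher. ANAPC13 was higher in the S100A16 KD (0.43 ± 0.06), and FZR1, the APC/C activator CDH1, in the hnRNPM KD (0.30 ± 0.10). ANAPC15 was lower in all 3 KDs (-1.01 ± 0.08, -0.87 ± 0.08 and -0.90 ± 0.08), ANAPC10 most in the hnRNPM KD (-1.11 ± 0.08) and CDC26 most in the MagoHB KD (-1.12 ± 0.07). Of 14 regulators, which include DREAM, NF-Y and MuvB subunits, 7, 9 and 5 were lower and 0, 0 and 1 higher, with medians of -0.25, -0.36 and -0.19. With those libraries left out, the regulators' medians were -0.30, -0.27 and -0.04. MYBL2, which encodes B-MYB, was lower in the S100A16 KD (-1.42 ± 0.19, adjusted p = 3.2e-05) and the hnRNPM KD (-1.01 ± 0.19, adjusted p = 0.00060) and had -0.24 ± 0.19 in the MagoHB KD (adjusted p = 0.34). LIN52, a MuvB subunit, was lower in the hnRNPM KD (-1.04 ± 0.09), and E2F4, the DREAM E2F, was higher in the MagoHB KD (0.41 ± 0.07), where RBBP4, another MuvB subunit, was lower (-0.52 ± 0.08).

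The list of G1/S and replication genes was mostly lower in the S100A16 and hnRNPM KDs. Among its 46 genes, 44, 39 and 20 were lower and 1, 1 and 0 higher in the S100A16, hnRNPM and MagoHB KDs, with medians of -0.99, -0.79 and -0.33. The shares over all genes tested were 24.8%, 23.8% and 22.3% lower and 27.6%, 25.4% and 23.3% higher. Without the 3 libraries that stood apart, 45, 41 and 22 of the 46 were lower and 1, 3 and 7 higher, with medians of -1.02, -0.64 and -0.12. In that fit 27.2%, 25.2% and 22.7% of all genes were lower, and 6391, 5813 and 4975 of 22638 were higher. CDC6, which loads the replicative helicase, was lower in the S100A16 KD (-1.05 ± 0.11) and the hnRNPM KD (-1.39 ± 0.11). Cyclin E genes split, with CCNE1 higher in the S100A16 KD (0.44 ± 0.08) and lower in the hnRNPM KD (-1.77 ± 0.09), and CCNE2 higher in the hnRNPM KD (0.30 ± 0.11) and lower in the S100A16 and MagoHB KDs (-0.74 ± 0.12 and -0.62 ± 0.11). The median difference between the S100A16 and MagoHB KDs was -0.59 over the 46 genes, with 33 of 46 lower, and -0.24 over the 50 members. Of all genes tested 21.7% were lower in this pair.

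**Figure D5:**
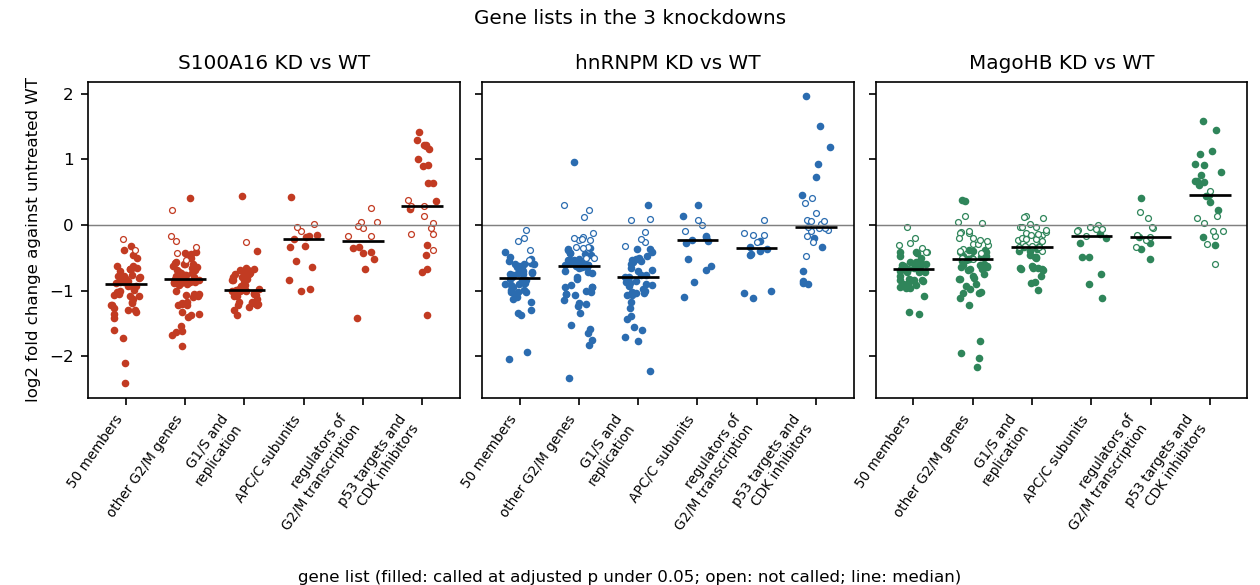
Log2 fold change against untreated WT (vertical axis) of each gene of 6 lists in each KD, with a line at the list's median; filled points passed an adjusted p of 0.05. The members and other G2/M genes lie mostly below 0 in all 3 KDs, and the G1/S genes have a median of -0.99 in the S100A16 KD and -0.33 in the MagoHB KD.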

How the data were processed

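Poly(A) RNA of 18 A549 libraries was sequenced. The authors deposited a table of raw counts per gene and RPKM values, which equalled count over gene length and total count within a relative 0.001 for 100% of values. HISAT2 2.2.1, SAMtools 1.15.1, StringTie 2.1.4, FastQC 0.11.9 and DESeq2 1.32.0 are named, per the submitters' processing notes; no label or header states how strand was handled. Of counts from 1 to 19, 18.6% to 22% were odd, as when both mates of a pair are counted, so halved counts were tried. Counts were filtered with filterByExpr, scaled by TMM and fitted with edgeR 4.0.16 (R 4.3.3, quasi-likelihood F test, robust), 1 mean per group over all 18 libraries, with Benjamini-Hochberg adjustment over 22382 genes and a threshold of 0.05. RPKM served only for levels between genes. In data simulated for the S100A16, hnRNPM and MagoHB KD comparisons (21819, 21823 and 21800 genes), 97%, 95.5% and 97% of 2-fold changes and 79.1%, 80.6% and 80.6% of 1.5-fold changes were recovered. Only 67, 67 and 66 genes, all of at least 5 CPM, were changed by 1.5, 2 and 4-fold. That is far fewer than were called in the data, and no simulated library was made to stand apart. The recovery in the real comparisons may thus differ. Alternatives were DESeq2 1.42.0, total counts alone, no filter beyond 1 count, a replicate block, groups compared only, those halved counts and leaving out each library; leaving out the 3 libraries that stood apart was added after seeing the data. Per library values are given for the member of each role class with the smallest adjusted p, for a few fixed members and for some members called between KDs; from other lists, some of the 3 genes with the smallest adjusted p per direction are named. The members and lists were chosen with earlier results of these data known. Replicate numbers were not treated as pairs.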

Additional observations from a re-analysis of the deposited data

How the results depend on the processing

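Leaving out 1 library at a time gave 45 to 49 members lower in the S100A16 KD, 39 to 48 in the hnRNPM KD and 37 to 47 in the MagoHB KD, and 42 to 49 for the S100A16 KD against WT under H2O2. It gave 8 to 18 lower and 2 to 11 higher for S100A16 against hnRNPM, 10 to 38 lower and 1 to 5 higher for S100A16 against MagoHB, and 6 to 31 lower and 0 to 6 higher for hnRNPM against MagoHB. The shares over all genes in these fits, and in most alternatives that follow, are not given here. Such counts show how the calls moved and not whether other genes moved alike. Total counts alone gave 1 member higher in the MagoHB KD, 9 higher for S100A16 against hnRNPM and 17 lower for hnRNPM against MagoHB, and turned CDC25B in the MagoHB KD to 0.17. Fits to the groups compared only gave 33 lower in the MagoHB KD, 10 higher for S100A16 against hnRNPM, 9 lower and 0 higher for S100A16 against MagoHB, 6 lower and 0 higher for hnRNPM against MagoHB, 1 lower for H2O2 in WT and 3 higher for H2O2 in the S100A16 KD. No filter beyond 1 count gave 2 higher, and DESeq2 3 higher, for hnRNPM against MagoHB. Without the 3 libraries that stood apart there were 32 lower and 8 higher for S100A16 against hnRNPM, 44 and 1 for S100A16 against MagoHB, and 30 and 8 for hnRNPM against MagoHB, with 1 lower for H2O2 in WT (SMC2) and 1 higher in the S100A16 KD (BIRC5). That setting also reversed KIF4A (-0.16), DLGAP5 (-0.19), HMMR (-0.25) and SMC2 (-0.12) in S100A16 against MagoHB, and leaving out MagoHB KD 2 reversed RACGAP1 in hnRNPM against MagoHB (-0.21). The cause was not tested. With the replicate block 47, 45 and 43 members were lower in the 3 KDs, 14 for S100A16 against MagoHB and 44 under H2O2. No pair of groups of 15 had all 3 correlations of same-numbered libraries over 0.1 (range -0.54 to 0.63). Pairing by replicate number was thus not seen, though 3 libraries a group cannot exclude it. A sample of 3 libraries a group limits calls to changes well above the spread, and 1.5-fold changes were missed in part in the simulation.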

Other observations

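p53 targets and CDK inhibitors, a list that holds genes acting against cell cycle progression, were called in both directions in each KD. Of 27 tested, 13 were higher and 5 lower in the S100A16 KD, 6 and 6 in the hnRNPM KD, and 16 and 2 in the MagoHB KD. Of all genes tested 27.6% were higher and 24.8% lower, 25.4% and 23.8%, and 23.3% and 22.3% in these comparisons, so the hnRNPM KD counts are near the share over all genes. XPC, a DNA repair gene, was higher in the S100A16 KD (0.36 ± 0.06) and lower in the MagoHB KD (-0.31 ± 0.06). RRM2B, a p53-induced ribonucleotide reductase subunit (1.16 ± 0.17, log2 fold change ± SE), and ZMAT3 (1.00 ± 0.16) were higher in the S100A16 KD, where CDKN2C, the p18 inhibitor of CDK4 and CDK6, was lower (-1.38 ± 0.13). BTG2 (1.96 ± 0.32) and BBC3 (1.51 ± 0.25), which encodes PUMA, were higher in the hnRNPM KD, and SFN, which encodes 14-3-3 sigma, was lower (-0.90 ± 0.09). FDXR (0.60 ± 0.07) and GADD45B (1.45 ± 0.19) were higher in the MagoHB KD, and BAX was lower (-0.18 ± 0.07). CCNG1 was lower in the S100A16 KD (-0.72 ± 0.09), and ZMAT3 (-0.88 ± 0.17) and TP53I3 (-0.70 ± 0.15) in the hnRNPM KD. SESN1, a sestrin, was higher in the hnRNPM and MagoHB KDs (0.73 ± 0.12 and 0.76 ± 0.12) and lower in the S100A16 KD (-0.66 ± 0.12). CDKN1A, the p21 gene, named after its values were seen, was higher in the S100A16 KD (0.91 ± 0.26, edgeR adjusted p = 0.0095). Its hnRNPM KD value was -0.47 ± 0.26 (edgeR adjusted p = 0.16) and its MagoHB KD value 0.51 ± 0.26 (edgeR adjusted p = 0.13). Without the 3 libraries that stood apart, 15, 8 and 16 of the 27 were higher and 8, 11 and 5 lower. In that fit 27.2%, 25.2% and 22.7% of all genes were lower, and 6391, 5813 and 4975 of 22638 were higher. The 11 lower in the hnRNPM KD are above the share over all genes in that fit, while its 8 higher are near it.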
